A study of Mus musculus with 4 samples.

Results

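The genes described here encode the oxidative phosphorylation system of mouse mitochondria, and they were taken by symbol from single-cell counts of embryonic cortex. The set holds 110 genes of 36495 with a row of their own. Of these, 13 are the protein-coding genes of the mitochondrial genome (ATP6, ATP8, COX1, COX2, COX3, CYTB, ND1 to ND6 and ND4L). The other 97 are nuclear genes whose symbols start with Nduf, Sdh, Uqcr, Cox followed by 4 to 8, or Atp5, which name genes of complexes I to V in that order. Ndufa4 and Ndufa4l2 are the exceptions and were counted in complex IV, and Atp5sl was kept in complex V by its symbol. By function, 82 of the nuclear genes encode subunits and 15 encode assembly or other factors. The nuclear genes belong to complex I (44), complex II (8), complex III (8), complex IV (20) and complex V (17). Cells came from the cortex of C57BL/6 mice at embryonic day E16.5, with 1 library per mouse, 2 mice of the genotype given as HET and 2 of the genotype given as COP1 KO (the sample titles write CKO). The labels do not define HET, name no Cre driver and give no litter, so the p-values below measure the spread between these 4 libraries. COP1 is a ubiquitin ligase that marks other proteins for degradation.

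The respiratory chain passes electrons from NADH through complex I, or from succinate through complex II, to complexes III and IV, and the proton gradient that results drives the ATP synthase, complex V. All of these complexes except complex II combine subunits encoded in the mitochondrial genome with subunits made from nuclear genes and imported, so both genomes have to supply matching parts. Neural stem cells are known to rely more on glycolysis, and neurons more on oxidative phosphorylation.

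After filtering, 18785 of 19237 barcodes were kept as cells, between 4317 and 5195 per library, with a median of 4505 to 5477 counts per cell. A total of 172 barcode sequences occurred among the kept cells of more than 1 library. Cells were clustered and named from marker genes. A cluster was left unnamed where no cell type led clearly or where its top genes held more markers of another type. The second rule alone left a cluster of 1917 cells unnamed, with a marker score of 0.787 for excitatory neurons and 0.423 for the next type. The named classes were excitatory neuron-like (7605 cells), striatal projection neuron-like (1746), cortical interneuron-like (1722), radial glia-like (1318), intermediate progenitor-like (1501), ganglionic eminence progenitor-like (658), oligodendrocyte precursor-like (310), Cajal-Retzius-like (253), fibroblast-like (92), microglia-like (86) and erythroid-like (8), and 3486 cells stayed unnamed. Levels are given as CPM, counts scaled to a common library total. Below, 4 values in a row are always HET 1, HET 2, COP1 KO 1 and COP1 KO 2. Cop1, listed under its older symbol Rfwd2, had 32.0, 39.0, 30.5 and 29.7 CPM in the whole library. The log2 difference, COP1 KO over HET, was −0.21 (SE 0.111), which did not pass the test (adjusted p = 0.53, edgeR's quasi-likelihood test with Benjamini-Hochberg adjustment). Both COP1 KO libraries were lower in the whole library and in radial glia-like, striatal projection neuron-like, intermediate progenitor-like (37.1, 46.2, 26.4 and 27.6 CPM) and ganglionic eminence progenitor-like cells (37.2, 39.7, 18.8 and 19.9 CPM, log2 difference −0.95, adjusted p = 0.37). The groups overlapped in the other 4 classes, cortical interneuron-like cells with a difference of 0.28 among them, and edgeR called the gene in none of those it tested. A 3′ tag outside the deleted stretch would not show the deletion, so these counts do not check the labels.

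The mitochondrial genes were counted very unevenly. CYTB (cytochrome b of complex III) held 41.2% of the counts of the 13 genes, ND1 31.1%, ND4 17.7%, ND2 5.74%, ND5 2.04% and COX1 1.80% (means of 4 libraries). The NADH dehydrogenase subunits ND1, ND2, ND4 and ND5 together with CYTB took between 97.7% and 97.8% of these counts in each library. ATP8, a small ATP synthase subunit, had 2 to 5 counts per library. These counts come from the 3′ ends of transcripts and are not per length, so they describe what the libraries counted and give no order of transcript levels.

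The mouse nuclear genome carries copies of mitochondrial DNA, and the genes with few counts were mostly those with the closest copies. Against GENCODE transcripts on GRCm38, COX1, COX2, COX3, ATP6 and ND4L had a copy identical over the aligned 3′ bases, and ND3 had a copy of 99.7% identity. The best copies of the other 7 genes reached 96.5% (ND2), 94.5% (ND5), 93.0% (CYTB), 92.8% (ND6), 83.6% (ND1), 81.4% (ATP8) and 78.8% (ND4). The 6 genes with a copy of at least 99% held 2.09% to 2.22% of the mitochondrial counts. ND6 and ATP8, whose copies were more distant, were also low, at 0.0849% to 0.101% together. How reads with more than 1 placement were counted is not given in the sources used here, and the part of the copies in these low counts was not tested. The ends of genes also overlap on the mitochondrial genome, by 43 bases for ATP8 and ATP6, 14 for ND5 and ND6, 7 for ND4L and ND4, and 1 for ATP6 and COX3.

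The following 60-base stretches near the 3′ ends, each with its nuclear copy, are shown because they are where reads would be told apart; capitals mark the bases that differ. COX1 and COX3 do not differ from their copies in this stretch, CYTB differs at 5 bases, ND1 at 13 and ND4 at 12.
COX1: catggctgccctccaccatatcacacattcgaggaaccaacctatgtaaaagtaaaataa
Gm29216: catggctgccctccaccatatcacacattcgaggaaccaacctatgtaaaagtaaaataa
COX3: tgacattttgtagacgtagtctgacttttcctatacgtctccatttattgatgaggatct
Gm28437: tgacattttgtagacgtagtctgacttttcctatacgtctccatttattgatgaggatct
CYTB: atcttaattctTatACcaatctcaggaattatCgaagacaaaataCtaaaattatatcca
Gm11410: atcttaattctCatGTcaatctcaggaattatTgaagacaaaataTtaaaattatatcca
ND1: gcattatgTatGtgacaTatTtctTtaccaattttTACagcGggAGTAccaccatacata
Gm48258: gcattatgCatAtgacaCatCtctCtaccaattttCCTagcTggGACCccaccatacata
ND4: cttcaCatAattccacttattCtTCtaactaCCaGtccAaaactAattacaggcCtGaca
Gm37224: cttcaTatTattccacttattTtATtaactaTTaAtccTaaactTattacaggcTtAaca

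**Figure D1:**
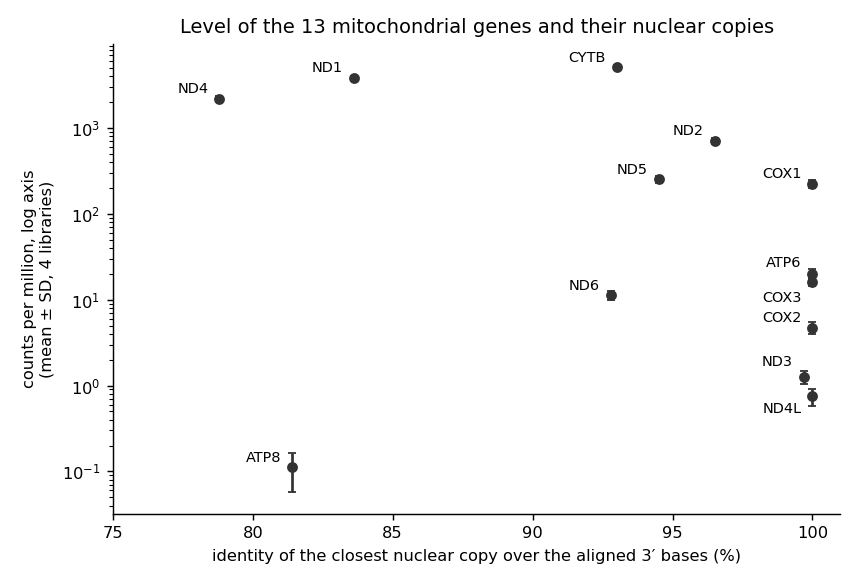
Each point is 1 of the 13 mitochondrial genes, with the identity of its closest nuclear copy over the aligned 3′ bases on the x axis and its level in the whole library on a log y axis (CPM, mean ± SD of 4 libraries). The 6 genes at 99% or more lie to the right, from COX1 down to ND4L, while CYTB, ND1 and ND4 lie at the top with copies of 93.0%, 83.6% and 78.8% identity.

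Across cell types, the share of all counts held by the 2 groups of genes differed more than the genotypes did. Classes were formed by clustering the same cells, so these levels are a description without a test. Among the named classes with at least 16 cells in every library, the mitochondrial share was highest in fibroblast-like cells. It was 1.92%, 1.79%, 1.78% and 1.76% of counts there, and the nuclear share was 4.57%, 4.40%, 4.17% and 4.35%. Oligodendrocyte precursor-like cells came next, with a mitochondrial share of 1.67%, 1.27%, 1.52% and 1.54% and a nuclear share of 3.83%, 3.52%, 3.69% and 3.62%. In both classes all 4 libraries lay above every whole-library nuclear share. Fibroblast-like cells numbered 17 to 30 per library, so their values rest on few cells.

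Cajal-Retzius-like cells, the early reelin-secreting neurons of the cortical surface, paired a low mitochondrial share (0.959%, 0.945%, 1.07% and 1.03%) with a high nuclear share (3.45%, 3.45%, 3.42% and 3.31%). Their mitochondrial counts per nuclear count were 0.278, 0.274, 0.314 and 0.312, the lowest mean ratio of the classes with at least 16 cells in every library (0.295). Excitatory neuron-like cells had ratios of 0.404, 0.408, 0.447 and 0.434, above those of radial glia-like cells at 0.372, 0.380, 0.404 and 0.388. Within each library the excitatory neuron-like ratio exceeded the radial glia-like ratio. Over the 24 clusters with enough cells, the mitochondrial and nuclear shares moved together (Pearson r = 0.75, Spearman rho = 0.56), and the mitochondrial share had little relation to the median counts per cell (r = 0.06, rho = −0.10). These clusters share the same 4 libraries, so both coefficients are descriptions.

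In radial glia-like and in intermediate progenitor-like cells, the dividing cluster had a smaller mean mitochondrial share than the non-dividing one. Radial glia-like cells comprised 2 clusters, and the dividing one had a mean mitochondrial share of 1.08% and a nuclear share of 2.94%, against 1.29% and 3.21% in the non-dividing one. Its mitochondrial share was lower in each of the 4 libraries, at 1.02%, 1.02%, 1.18% and 1.10% against 1.19%, 1.21%, 1.40% and 1.36%. Of the 2 intermediate progenitor-like clusters, the dividing one had 1.04% against 1.22%, while its nuclear share was 2.84% against 2.78%. Median counts per cell were higher in the dividing clusters, 8454 against 5021 in radial glia-like and 6870 against 3949 in intermediate progenitor-like cells. The part of depth in these shares was not tested.

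**Figure D2:**
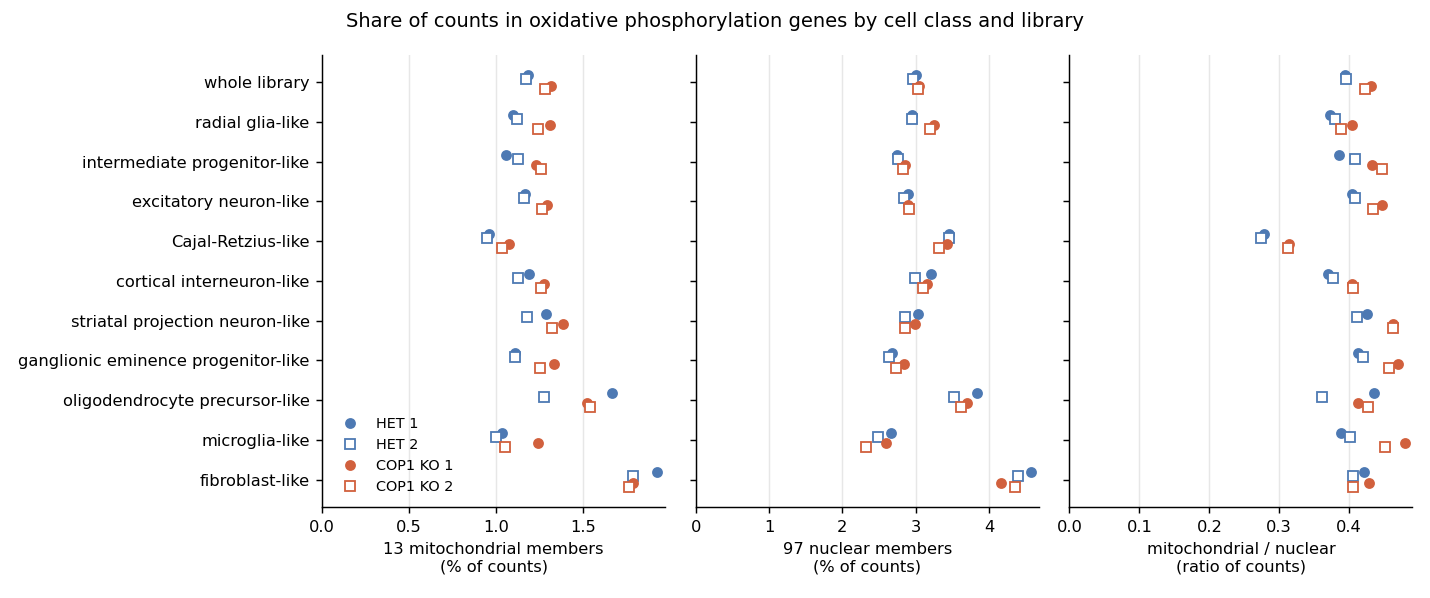
Points give each library's share of counts in the 13 mitochondrial genes (left, %), in the 97 nuclear genes (middle, %) and the ratio of the 2 (right), by cell class; blue is HET and orange COP1 KO, filled for replicate 1 and open for replicate 2. The COP1 KO points lie to the right of the HET points for the mitochondrial share of the whole library (1.32% and 1.28% against 1.18% and 1.17%), while the nuclear shares lie close together.

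By genotype, mitochondrial transcripts took a larger share of counts in the COP1 KO libraries. In the whole libraries the share was 1.18%, 1.17%, 1.32% and 1.28%, a log2 difference of 0.14, and the groups did not overlap. The nuclear share was 3.01%, 2.96%, 3.05% and 3.03%, a difference of 0.03. In a sum over all cells, a change in the mix of cell types and a change of RNA per cell cannot be told apart, so the same shares were taken within classes. A share summed over the members carries no test, and each group has 2 libraries. The median counts per cell were 5171, 5477, 4505 and 5135, lower in both COP1 KO libraries. The relation to counts per cell given above was taken over clusters. The part of depth in the genotype difference was not tested.

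The larger mitochondrial share was present in most cell types. Both COP1 KO libraries exceeded both HET libraries in 7 of the 8 classes with at least 20 cells in every library, and in 19 of 24 clusters, while 1 cluster (fibroblast-like) went the other way and 4 overlapped. The classes and clusters share the same 4 libraries, so these counts are not repeated results. Excitatory neuron-like cells had 1.17%, 1.16%, 1.29% and 1.26% (log2 difference 0.14), and ganglionic eminence progenitor-like cells had 1.11%, 1.11%, 1.34% and 1.25% (0.22). Oligodendrocyte precursor-like cells were the class that overlapped, at the shares given above, where HET 1 was the highest and HET 2 the lowest of the 4. In this class HET 1 also had 67260 CPM of Ttr, a choroid plexus gene, against 11.1, 16.4 and 10992 CPM in the others, and the part of such cells in the overlap was not tested. The nuclear share was less even: both COP1 KO libraries were higher in 4 of the 8 classes, lower in 1 (Cajal-Retzius-like) and overlapping in 3. It was 2.90%, 2.84%, 2.90% and 2.91% in excitatory neuron-like cells, with a difference of 0.02. In radial glia-like cells both shares were higher in the COP1 KO libraries, the mitochondrial one at 1.10%, 1.12%, 1.31% and 1.24% (0.20) and the nuclear one at 2.96%, 2.95%, 3.24% and 3.20% (0.13). In intermediate progenitor-like cells the mitochondrial share was 1.06%, 1.13%, 1.23% and 1.26% (0.19) and the nuclear share 2.75%, 2.76%, 2.85% and 2.82% (0.04).

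Gene by gene in the whole library, 11 of 12 mitochondrial genes tested were higher in COP1 KO, with a median log2 difference of 0.19 beside 0.00 over all 16978 genes tested. None of the 12 passed the threshold of an adjusted p of 0.05, at which 0.00589% of all genes rose and 0% fell by edgeR's quasi-likelihood test. At an unadjusted p under 0.05 there were 7 of the 12, beside 10.5% of all genes. For 8 of the 12 both COP1 KO libraries lay above both HET libraries, which held for 19.3% of all genes. The mitochondrial genes were counted in the same libraries and together make up the mitochondrial share above. Numbers of such genes, here and within classes below, are therefore not independent results. Whether these genes moved independently of each other was not tested. CYTB had 4930, 4820, 5391 and 5263 CPM (log2 difference 0.15), and ND1 had 3669, 3691, 4029 and 4033 CPM (0.16). In both, the COP1 KO libraries were the higher ones without overlap.

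The other well-counted mitochondrial genes had the same order. ND4 had 2078, 2066, 2378 and 2240 CPM (0.18), ND2 had 671, 668, 778 and 729 CPM (0.20), and ND5 had 234, 230, 276 and 272 CPM (0.26, adjusted p = 0.20 by edgeR). COX1, the catalytic core of complex IV, had 203, 208, 252 and 230 CPM (0.25). These 4 genes did not overlap between genotypes either. Of the low genes, ND6, the one member encoded on the light strand, had 9.95, 10.2, 13.1 and 11.6 CPM (0.32), and ND3 had 1.10, 1.12, 1.28 and 1.58 CPM, both again with the COP1 KO libraries higher. The groups overlapped for COX2 (4.77, 3.84, 4.71 and 5.63 CPM), COX3 (16.3, 15.1, 14.6 and 18.3 CPM), ATP6 (20.6, 17.3, 18.7 and 23.2 CPM) and ND4L (0.991, 0.633, 0.716 and 0.646 CPM).

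Of the 94 nuclear genes tested in the whole library, 65 were higher and 29 lower in COP1 KO, with a median log2 difference of 0.04. None passed edgeR's test after adjustment and 7 had an unadjusted p under 0.05. By DESeq2, 1 of all members was called. Groups did not overlap for 29 with COP1 KO higher and for 17 with COP1 KO lower, beside 19.3% and 26.4% of all genes. The furthest fall among genes of at least 20 CPM was that of Atp5g1, which encodes the proton-carrying c subunit of complex V, at 55.7, 52.0, 43.5 and 47.1 CPM (−0.23, adjusted p = 0.40 by edgeR). The number of members called changed with the library left out, here and in most classes below. In each fit without a library, the genotype left with 1 library is assumed to vary like the other one, which alone gives the spread. The share of all genes called was not taken for these fits or for DESeq2, so numbers of calls there are no result about the members.

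The differentiated classes gave no called member. In excitatory neuron-like cells edgeR called 0% of 14067 genes in either direction, and 9.19% had an unadjusted p under 0.05, as did 6 mitochondrial and 5 nuclear members. DESeq2 called 1 member. Of its 11 tested mitochondrial genes 10 were higher (median 0.21, 8 without overlap), and of its 91 nuclear genes 67 were higher (0.04), with 20 higher and 16 lower without overlap, beside 16.8% and 26.7% of all genes. Leaving out a COP1 KO library changed the number of calls in this class. The largest fall there was that of Sdhd, a membrane anchor of complex II, at 111, 103, 76.7 and 98.5 CPM (−0.26, adjusted p = 0.54).

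In cortical interneuron-like, striatal projection neuron-like, Cajal-Retzius-like and oligodendrocyte precursor-like cells, edgeR likewise called no member, and DESeq2 called none. At an unadjusted p under 0.05 there were 3, 4, 1 and 0 mitochondrial genes and 3, 3, 8 and 6 nuclear genes in these classes, beside 5.87%, 6.32%, 6.33% and 8.36% of all genes. The share of all genes called by edgeR was 0.0101% risen and 0% fallen, 0.00967% and 0%, 0% and 0.0134%, and 0.0129% and 0.0645% respectively. Mitochondrial genes were higher in 8 of 9, 10 of 10, 6 of 6 and 5 of 7, with median log2 differences of 0.18, 0.21, 0.18 and 0.05. Groups did not overlap, COP1 KO higher, for 6, 5, 4 and 0 of them. For the nuclear genes the medians were 0.02, 0.01, −0.03 and −0.07. Their groups did not overlap for 20 higher and 13 lower genes, beside 15.4% and 20.1% of all genes in cortical interneuron-like cells, and for 12 and 20, beside 15.5% and 21.2%, in striatal projection neuron-like cells. In Cajal-Retzius-like cells they numbered 11 and 19, beside 15.7% and 20.3%, and in oligodendrocyte precursor-like cells 17 and 7, beside 22.3% and 16.8%.

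The members of largest rise or fall in these classes included Ndufaf6, a complex I assembly factor, in cortical interneuron-like cells at 22.7, 16.4, 37.0 and 34.8 CPM (0.88, SE 0.246), and Ndufb4, a complex I subunit, in Cajal-Retzius-like cells at 28.9, 24.5, 13.5 and 13.3 CPM (−0.96, SE 0.475). Both had groups that did not overlap, and both had adjusted p-values above the threshold, 0.59 and 0.78. Ndufc2, a complex I subunit, was the member of largest rise in oligodendrocyte precursor-like cells, at 586, 751, 1028 and 1058 CPM (0.59, adjusted p = 0.44 by edgeR). This class had 33, 34, 106 and 137 cells, so its HET values rest on fewer cells. In that class the fibroblast list summed to 396 to 502 CPM in HET and 1522 to 1971 CPM in COP1 KO (1 of 10 markers tested, which rose, and 3 at 0), and the list of dividing cells to 892 to 1520 and 2332 to 2468 CPM (6 of 6 higher, none called). The choroid plexus list ran from 44.6 to 68425 CPM in HET and 38.3 to 11150 CPM in COP1 KO, and the part of these cells was not tested. Ndufaf1, another complex I assembly factor, had the largest difference upwards in Cajal-Retzius-like cells, at 26.9, 26.5, 45.1 and 32.3 CPM (0.54, adjusted p = 0.87). Atp5g2, a further gene of the c subunit of complex V, had 26.2, 23.4, 13.8 and 18.1 CPM in striatal projection neuron-like cells (−0.60, adjusted p = 0.76). The groups of these 3 genes did not overlap either. The number of calls also depended on the library left out in striatal projection neuron-like, Cajal-Retzius-like and oligodendrocyte precursor-like cells.

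Radial glia-like cells, the stem cells of the developing cortex, had the most members called: 4 rose and none fell. They were Cox7c, Cox8a and Cox7a2l, all nuclear genes of complex IV or its assemblies, and ND5 of complex I. In this class 2.08% of 11615 genes rose and 0.835% fell, so 3 of 91 tested nuclear genes and 1 of 10 mitochondrial genes are few calls in all. All 10 tested mitochondrial genes were higher in COP1 KO (median log2 difference 0.28), and 79 of 91 nuclear genes were higher (0.16), beside a median of 0.00 over all genes. Groups did not overlap for 7 mitochondrial and 44 nuclear genes with COP1 KO higher, and for 5 nuclear genes with COP1 KO lower, while over all genes 18% and 28.5% did so. At an unadjusted p under 0.05 there were 6 mitochondrial and 33 nuclear genes, beside 14.7% of all genes. The number of members called was larger without either COP1 KO library and smaller without either HET library. The share of all genes called in these fits was not taken.

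Among the complexes in radial glia-like cells, complex IV had the largest median. Of its 14 nuclear genes tested, 13 were higher and 3 rose (median log2 difference 0.24). In complex I 39 of 44 were higher (0.14), in complex II 7 of 8 (0.07), in complex III 8 of 8 (0.13) and in complex V 12 of 17 (0.16), with none called in these 4. Among the 15 assembly and other factors, which are counted in their complexes too, 11 were higher (0.08). Complex II, whose 8 genes are 4 subunits of succinate dehydrogenase and 4 assembly factors, had the smallest median of the 5 complexes.

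**Figure D3:**
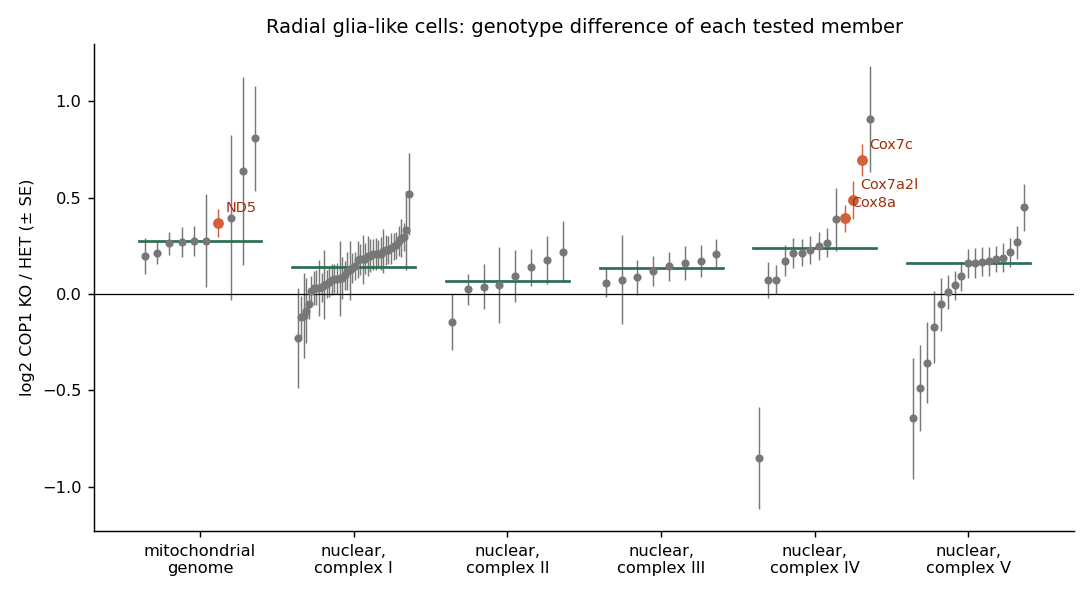
Log2 difference (COP1 KO over HET, ± SE) of each tested member in radial glia-like cells, ordered by size within the mitochondrial genome and each nuclear complex, with green lines at the medians. The 4 labelled orange points, Cox7c, Cox7a2l, Cox8a and ND5, passed the test; most other points lie above 0, and the mitochondrial and complex IV medians are 0.28 and 0.24.

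Of the mitochondrial genes in radial glia-like cells, ND5, a proton-pumping subunit of complex I, had 223, 217, 278 and 270 CPM. Both COP1 KO libraries were higher, by 0.37 on the log2 scale (SE 0.0732, 95% confidence interval 0.20 to 0.54, adjusted p = 0.031 by edgeR). The call was lost without HET replicate 1 (adjusted p = 0.18), without HET replicate 2 (0.22), in DESeq2 (0.43), at 1000 genes per cell (0.055) and in either radial glia-like cluster alone (0.20 and 0.17). Over its alternatives the adjusted p ran from 0.0020 to 0.43, while the difference stayed between 0.33 and 0.42 with any 1 library left out. CYTB had 3982, 3979, 4732 and 4492 CPM (0.26, SE 0.059) and missed the threshold at an adjusted p of 0.055. ND1 had 3976, 4066, 4574 and 4437 CPM (0.21), ND4 1863, 1941, 2345 and 2102 CPM (0.28) and ND2 760, 805, 938 and 883 CPM (0.27), with adjusted p-values of 0.0997, 0.13 and 0.14. These 4 genes were all higher in COP1 KO without overlap. COX1 had 153, 159, 182 and 164 CPM (0.20) and COX3 8.58, 10.7, 17.5 and 15.6 CPM (0.81, adjusted p = 0.20), again in the same order.

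Cox7c, a small structural subunit of complex IV (GRCm38 chromosome 13, 86044798 to 86046795 in RefSeq), gave the clearest difference of all members. In radial glia-like cells it had 176, 157, 262 and 258 CPM, so both COP1 KO libraries lay well above both HET libraries. The log2 difference was 0.70 (SE 0.0839, 95% confidence interval 0.50 to 0.89, adjusted p = 0.0032 by edgeR), and it was called in all 15 alternatives, with adjusted p-values up to 0.028. It also rose in intermediate progenitor-like cells, at 176, 204, 268 and 287 CPM (0.58, SE 0.0996, adjusted p = 0.042). That call was lost without HET replicate 1 (adjusted p = 0.69), without HET replicate 2 (0.23), in DESeq2 (0.16), at 1000 genes per cell (0.12) and with clustering without the members (0.15). Over its alternatives the adjusted p ran from 1.2e-05 to 0.69, and the difference from 0.47 to 0.70 with any 1 library left out.

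In ganglionic eminence progenitor-like cells Cox7c had 174, 227, 330 and 310 CPM, again without overlap. It rose by 0.70 on the log2 scale (SE 0.135, adjusted p = 0.031 by edgeR). Left out in turn, HET replicate 1 gave an adjusted p of 0.72, HET replicate 2 of 0.10 and COP1 KO replicate 1 of 0.15, with differences of 0.53 to 0.93 over all libraries left out. The call was also lost in DESeq2 (0.47), with library totals (0.054) and with clustering seed 1 (0.066), and the adjusted p ran from 8.4e-05 to 0.72 over its alternatives. In excitatory neuron-like cells, at 218, 235, 318 and 332 CPM, the difference of 0.55 (SE 0.054) had an adjusted p of 0.14. In the whole library, at 220, 238, 317 and 324 CPM, the difference was 0.51 (adjusted p = 0.10). The COP1 KO libraries were the higher ones without overlap in the whole library and in all 8 classes.

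Cox7c was the one member called in intermediate progenitor-like cells, where 0.38% of 10789 genes rose and 0.0927% fell, and in ganglionic eminence progenitor-like cells, where 0.334% of 8692 rose and 0.0575% fell. Besides it, all 9 tested mitochondrial genes were higher in each of these 2 classes, with median log2 differences of 0.25 and 0.36. Nuclear genes were higher in 66 of 90 (0.07) and 67 of 88 (0.10). In intermediate progenitor-like cells 7 mitochondrial genes were higher without overlap, as were 26 nuclear genes, with 10 lower, beside 16.7% higher and 25.4% lower of all genes. In ganglionic eminence progenitor-like cells these counts were 8, 25 and 9, beside 15.2% and 22% of all genes. An unadjusted p under 0.05 was reached by 7 mitochondrial and 7 nuclear genes (10.5% of all genes) in the first class and by 5 and 4 (7.54%) in the second. In both classes the calls depended on the library left out, and that of Cox7c was lost when either HET library was left out. In ganglionic eminence progenitor-like cells Ndufs5, a complex I subunit, had 28.8 and 31.0 CPM in HET and a mean of 18.7 CPM (SD 3.18) in COP1 KO (−0.63, adjusted p = 0.73), without overlap. Sdhaf3, a complex II assembly factor, had 22.0, 9.92, 28.2 and 21.0 CPM there (0.73, adjusted p = 0.74), with overlapping groups. Atp5g1 had 37.1, 29.9, 26.4 and 24.6 CPM in intermediate progenitor-like cells (−0.36, adjusted p = 0.60).

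Cox7c has processed copies, and reads from them can be hard to tell from the gene itself. Gm12338, a processed pseudogene on chromosome 11 (75599763 to 75599954, minus strand), equals the 192-base coding sequence of Cox7c with 0 differences. Gm10012 on chromosome 17 (25901856 to 25902227, plus strand), with 2 differences, had 1 count in all. The coding strand of each is shown because the counts of this gene depend on telling them apart; capitals in Cox7c and Gm10012 mark the 2 bases at which they differ.
Cox7c: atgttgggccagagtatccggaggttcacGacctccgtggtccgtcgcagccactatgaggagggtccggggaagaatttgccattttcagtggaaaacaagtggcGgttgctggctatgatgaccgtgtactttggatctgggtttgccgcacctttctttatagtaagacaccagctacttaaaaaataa
Gm12338: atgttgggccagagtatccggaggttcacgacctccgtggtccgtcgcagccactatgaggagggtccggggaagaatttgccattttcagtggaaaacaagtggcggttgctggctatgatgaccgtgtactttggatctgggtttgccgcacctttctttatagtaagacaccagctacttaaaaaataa
Gm10012: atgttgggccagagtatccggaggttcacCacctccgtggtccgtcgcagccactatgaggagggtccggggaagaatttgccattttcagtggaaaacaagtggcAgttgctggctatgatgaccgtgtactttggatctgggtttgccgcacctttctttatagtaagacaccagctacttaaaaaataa

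Gm12338 has its own row and was higher in COP1 KO as well. In radial glia-like cells it had 120, 111, 178 and 174 CPM and rose by 0.66 on the log2 scale (adjusted p = 0.0061 by edgeR). In intermediate progenitor-like cells it had 83.1, 97.8, 172 and 147 CPM and rose by 0.86 (adjusted p = 0.037). The share of the pair's counts given to Cox7c in radial glia-like cells was 59.5%, 58.7%, 59.5% and 59.8%, and the pair's sum was 295, 268, 440 and 432 CPM. The split was thus close in all 4 libraries, and the sum was higher in both COP1 KO libraries. Which of the 2 loci the reads came from was not tested.

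Cox8a, another small complex IV subunit (chromosome 19, 7215158 to 7217616), had 857, 846, 1061 and 1100 CPM in radial glia-like cells, without overlap. It rose by 0.39 on the log2 scale (SE 0.0695, 95% confidence interval 0.24 to 0.55, adjusted p = 0.020 by edgeR). The call was lost without HET replicate 1 (adjusted p = 0.090), without HET replicate 2 (0.13), at 1000 genes per cell (0.11), with clustering without the members (0.092) and in the dividing cluster alone (0.078). Over its alternatives the adjusted p ran from 9.4e-06 to 0.13, while the difference stayed between 0.38 and 0.40 with any 1 library left out. In excitatory neuron-like cells Cox8a had 691, 683, 708 and 681 CPM, a difference of 0.05 with overlapping groups. The class-by-genotype term, radial glia-like against excitatory neuron-like with library as a block, was 0.36 for Cox8a (SE 0.0623, 95% confidence interval 0.22 to 0.49, adjusted p = 0.0032 by edgeR). It was the one member called in that test. There, 1.25% of 14569 genes were called with a more positive log2 difference in radial glia-like cells and 0.57% with a more negative one. Without COP1 KO replicate 2 its adjusted p was 0.14, within a range of 2.1e-06 to 0.14. Over the members, 8 of 10 mitochondrial and 78 of 93 nuclear genes had a more positive log2 difference in radial glia-like cells. The medians of the term were 0.09 and 0.12, beside 7388 of 14569 genes in all and a median of 0.00. An unadjusted p under 0.05 on that term was reached by 2 mitochondrial and 27 nuclear genes, beside 10.3% of all genes.

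Cox7a2l (chromosome 17, 83501917 to 83514333), which helps to join complexes III and IV into supercomplexes, had 194, 173, 264 and 232 CPM in radial glia-like cells. Both COP1 KO libraries were higher, by 0.49 on the log2 scale (SE 0.0997, 95% confidence interval 0.26 to 0.71, adjusted p = 0.036 by edgeR). The call was lost without HET replicate 1 (adjusted p = 0.070), without HET replicate 2 (0.22), in DESeq2 (0.15), at 1000 genes per cell (0.069), with clustering without the members (0.058) and in the dividing cluster alone (0.21). Over its alternatives the adjusted p ran from 1.7e-05 to 0.22, and the difference from 0.37 to 0.60 with any 1 library left out. Its groups did not overlap in the whole library or in any of the 8 classes, with COP1 KO higher each time. In striatal projection neuron-like cells it was the member of largest rise, at 209, 153, 257 and 220 CPM (0.42, adjusted p = 0.69).

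**Figure D4:**
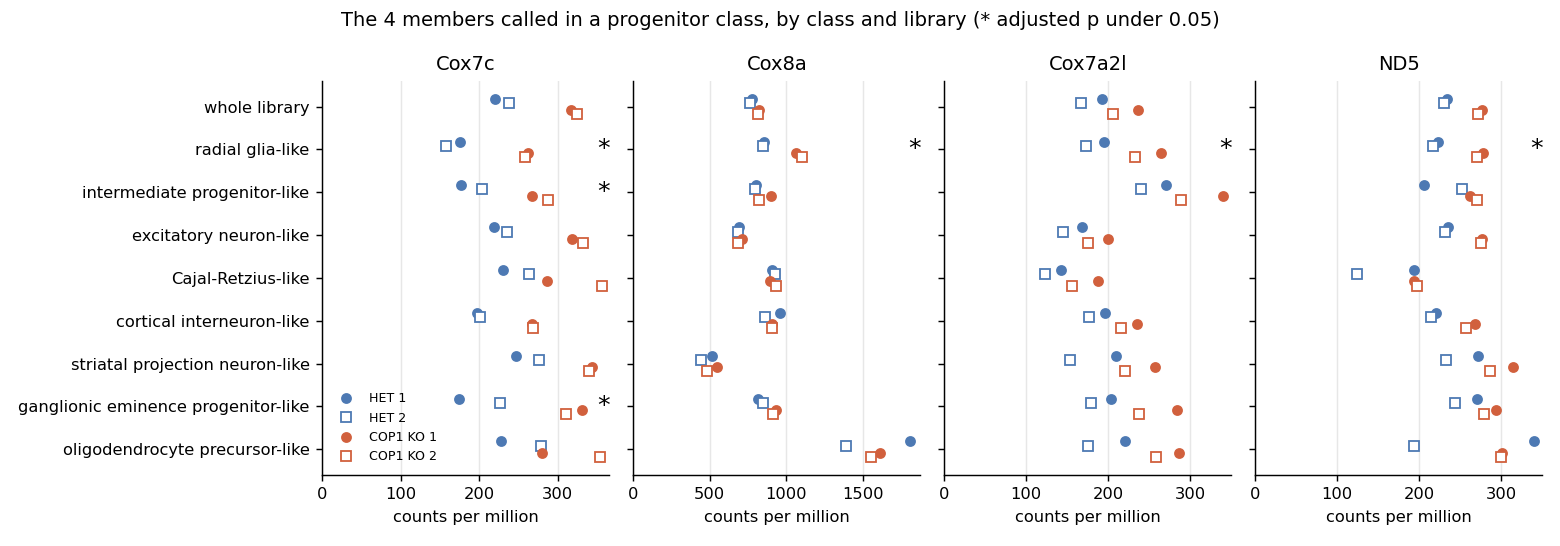
Level in CPM of the 4 members called in a progenitor class, in the whole library and 8 classes, with 1 point per library (blue HET, orange COP1 KO; filled replicate 1, open replicate 2); asterisks mark an adjusted p under 0.05. The orange points of Cox7c lie to the right of the blue ones in each row, whereas those of Cox8a separate in radial glia-like cells and lie together in excitatory neuron-like cells.

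The 250 bases before the RefSeq start of these 3 nuclear genes (GRCm38.p6, minus strand in each case) are given because the 3 moved together in 1 class. They are chr13:86046796-86047045 for Cox7c, chr19:7217617-7217866 for Cox8a and chr17:83514334-83514583 for Cox7a2l. Capitals mark the part of an ETS-type match, CTTCCGG, that falls before the start of Cox8a and runs across it.
Cox7c: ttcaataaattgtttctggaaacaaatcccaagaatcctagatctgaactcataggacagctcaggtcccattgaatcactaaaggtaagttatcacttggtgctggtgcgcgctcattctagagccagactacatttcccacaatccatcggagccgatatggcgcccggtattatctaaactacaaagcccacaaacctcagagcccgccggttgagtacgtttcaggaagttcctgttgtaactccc
Cox8a: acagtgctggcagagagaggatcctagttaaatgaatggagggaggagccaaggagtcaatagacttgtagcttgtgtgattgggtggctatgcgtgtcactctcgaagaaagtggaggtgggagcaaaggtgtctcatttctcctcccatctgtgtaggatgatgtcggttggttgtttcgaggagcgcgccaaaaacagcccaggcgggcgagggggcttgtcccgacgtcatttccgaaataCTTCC
Cox7a2l: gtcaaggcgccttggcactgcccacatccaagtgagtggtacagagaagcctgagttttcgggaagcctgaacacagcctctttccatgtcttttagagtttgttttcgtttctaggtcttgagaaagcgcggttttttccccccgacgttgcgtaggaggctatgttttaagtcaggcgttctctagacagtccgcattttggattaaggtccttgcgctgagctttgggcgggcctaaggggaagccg

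Known regulators of respiratory chain genes include ETS-family factors, NRF1 and YY1, so their short motifs were searched on both strands in the 300 bases around each start (250 before to 50 after). The ETS-type motif CCGGAAG was in 24.7% of 81 member promoters, against 9.12% of all 27025 promoters and 16.2% of the 12186 promoters of tested genes. The NRF1-type motif GCGCATGCG was in 12.3% of member promoters, against 1.81% and 3.43%. The YY1-type motif AAGATGGCG was in 9.88%, against 1.49% and 2.81%. Of the 3 promoters printed, that of Cox8a held ETS-type matches, at −5 and 32 from the start, and those of Cox7c and Cox7a2l held none of the 3 letter strings. A match is a description of letters and not a site of binding.

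Several members of radial glia-like cells came near the threshold or had a large change without passing it. Ndufb5, a complex I subunit, had 372, 374, 438 and 446 CPM (0.29, adjusted p = 0.077), and Ndufc2, another, had 934, 954, 1056 and 1117 CPM (0.25, adjusted p = 0.11). Both were higher in COP1 KO without overlap. Among isoforms, Cox6b2, known as the testis form of a complex IV subunit, had 8.08, 8.59, 14.8 and 15.6 CPM (0.91, adjusted p = 0.15). Cox4i2, the alternative form of subunit 4 that is known for its response to low oxygen, had 16.7, 18.5, 8.29 and 10.5 CPM (−0.85, adjusted p = 0.16). The first was higher and the second lower in both COP1 KO libraries. Atp5g1 had 52.5, 36.5, 30.1 and 36.6 CPM (−0.36, adjusted p = 0.49), with overlapping groups.

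Markers of other cells moved with genotype in these classes. In radial glia-like cells the 10 fibroblast markers summed to 136 CPM in each HET library and to 712 to 770 CPM in COP1 KO. All 5 that were tested were higher and 2 rose, Lgals1 (log2 difference 2.90, adjusted p = 3.5e-06) and Fn1 (10.6, 13.3, 42.3 and 34.5 CPM). Lgals1 alone held most of the sum in each library, at 624 and 668 CPM in COP1 KO. Dlk1 had overlapping groups (3.03, 22.8, 14.8 and 18.1 CPM), as had Igf2. Col1a1, Col3a1 and Lum stayed at or under 1.72 CPM and Col6a1 at or under 0.873 CPM. The 9 erythroid markers in the files summed to 171 to 195 CPM in HET and 2110 to 3093 CPM in COP1 KO, where 7 of 7 tested were higher and 5 rose, among them Hbb-b1 (140, 122, 2248 and 1404 CPM). No erythroid or fibroblast marker was at 0 in this class. Markers of dividing cells summed to 2614 to 2949 CPM in HET and 2073 to 2307 CPM in COP1 KO, and the dividing cluster made up 38.7%, 38.7%, 30.0% and 32.1% of radial glia-like cells. Markers of intermediate progenitors went from 1688 to 1725 CPM in HET to 1269 to 1487 CPM in COP1 KO, and 3 of 11 tested fell. The oligodendrocyte precursor list summed to 481 to 524 CPM in HET and 543 to 680 CPM in COP1 KO, where 7 of 7 tested were higher and 1 rose. The part of these markers' cells in the results for the members was not tested.

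Taken alone, the non-dividing radial glia-like cluster (864 cells) gave 4 called members and the dividing cluster (454 cells) gave 1, Cox7c. The share of all genes called in these 2 fits was not taken, so the counts are no contrast between the clusters. ND5 was not called in the non-dividing cluster (adjusted p = 0.20, with the range given above). In ganglionic eminence progenitor-like cells the fibroblast list summed to 105 to 118 CPM in HET and 496 to 613 CPM in COP1 KO. Of its 10 markers 3 were at 0, and 1 was tested, which rose. The erythroid list summed there to 159 to 223 and 2908 to 3589 CPM, with 5 of 5 tested higher and 4 risen. In intermediate progenitor-like cells the fibroblast list went from 25.5 to 28.1 CPM in HET to 118 to 136 CPM in COP1 KO. Of its 10 markers 2 were tested, both higher, and 1 rose. The erythroid list went there from 164 to 211 CPM in HET to 218 to 1786 CPM in COP1 KO, with 3 of 3 tested higher and 0 risen. The oligodendrocyte precursor list there summed to 58.3 to 95.1 CPM in HET and 114 to 122 CPM in COP1 KO, with 5 of 5 tested higher and 2 risen.

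Across cell types, single members of the 2 genomes varied by similar amounts. Among members that reached 20 CPM in at least 1 of the 8 classes, the log2 range between the highest and lowest class mean had a median of 0.67 for 7 mitochondrial genes (0.45 to 0.92) and 0.69 for 89 nuclear genes (0.14 to 6.29). The 6.29 belongs to Cox6b2, whose oligodendrocyte precursor-like mean rests on HET 1 alone (377 CPM, against 18.6, 30.1 and 28.1 CPM in the others), and the next widest was 2.04, for Atp5sl. The nuclear members with the highest whole-library means in their complexes were Ndufc2 (584 ± 24.0 CPM, SD, n = 4) and Ndufb9 (523 ± 9.58) in complex I, and the catalytic subunits Sdhb (393 ± 16.3) and Sdha (165 ± 7.23) in complex II. In complex III they were Uqcrh (699 ± 21.4) and Uqcrq (577 ± 17.0), in complex IV Cox4i1 (1511 ± 35.9) and Cox6b1 (1034 ± 15.2), and in complex V the catalytic subunit gene Atp5b (1333 ± 15.3) and Atp5e (731 ± 20.3). These are 3′ counts, not per length. The SD over all 4 libraries, both genotypes included, was below 5% of the mean for each of them.

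The widest ranges between classes belonged to a few small or accessory subunits. Ndufb2, a complex I accessory subunit, had 644 ± 14.9 CPM in Cajal-Retzius-like cells and 184 ± 15.5 CPM in ganglionic eminence progenitor-like cells. Ndufa1, which anchors part of complex I in the membrane, had 373 ± 27.2 against 153 ± 4.65 CPM in the same 2 classes. Cox8a was highest among the 8 classes in oligodendrocyte precursor-like cells (1590 ± 174 CPM) and lowest in striatal projection neuron-like cells (497 ± 43.4 CPM), and it reached 2366 ± 229 CPM in fibroblast-like cells. For these 3 genes the 4 libraries of the high class lay above all of the low class.

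Lower genes showed wide ranges too. Atp5sl, also known as a complex I assembly factor, had 46.0 ± 22.7 CPM in Cajal-Retzius-like cells and 10.4 ± 4.3 CPM in ganglionic eminence progenitor-like cells. Of the complex I assembly factors, Ndufaf5 had 69.4 ± 2.36 CPM in excitatory neuron-like and 29.3 ± 4.67 CPM in ganglionic eminence progenitor-like cells. Ndufaf8 had 136 ± 32.8 CPM in oligodendrocyte precursor-like, 123 ± 8.82 CPM in radial glia-like and 59.1 ± 2.35 CPM in excitatory neuron-like cells. Ndufaf6 ran from 43.9 ± 18.4 CPM in oligodendrocyte precursor-like to 19.3 ± 4.01 CPM in Cajal-Retzius-like cells. Ndufc2 stood at 1015 ± 86.7 CPM in radial glia-like cells against 501 ± 12.7 CPM in excitatory neuron-like cells.

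Alternative isoforms were found mainly in cells outside the neural classes. Ndufa4l2 (chromosome 10, 127509274 to 127517154), a relative of Ndufa4, the subunit that joins complex IV, had 662, 856, 433 and 733 CPM in an unnamed cluster of 104 cells led by the vessel genes Cldn5, Igfbp7 and Rgs5. It had 32.1 ± 6.34 CPM in fibroblast-like cells and 0.930 to 4.66 CPM as the mean of any other class. Ndufa4 itself had 591 ± 100 CPM in the vessel cluster, so there the 2 forms were counted at like levels. Cox4i2 (chromosome 2, 152753916 to 152765039) had 270, 296, 143 and 199 CPM in that cluster, against 13.5 ± 4.86 CPM in radial glia-like cells, the next class. Cox4i1 had 2008 ± 99.7 CPM in the cluster, so the usual form remained the larger by far. Ndufa4l2 and Cox4i2 were among the genes used for clustering, and clustering without any member returned the same 104 cells.

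Cox6b2 (chromosome 7, 4751792 to 4753094) had 124 ± 33.9 CPM in fibroblast-like cells, where Cox6b1, the usual form, was also present. In oligodendrocyte precursor-like cells it had 377, 18.6, 30.1 and 28.1 CPM, so HET 1 alone was high. That library also had the high Ttr count given above, and its 33 cells were the fewest. The part of such cells in the Cox6b2 value was not tested. Cox7a1, the heart and muscle form, had class means of 2.93 to 18.9 CPM, against 427 to 882 CPM for Cox7a2. Cox6a2, also a heart and muscle form, reached at most 1.94 CPM in a class mean, and Cox8b was listed at 0 in every class.

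**Figure D5:**
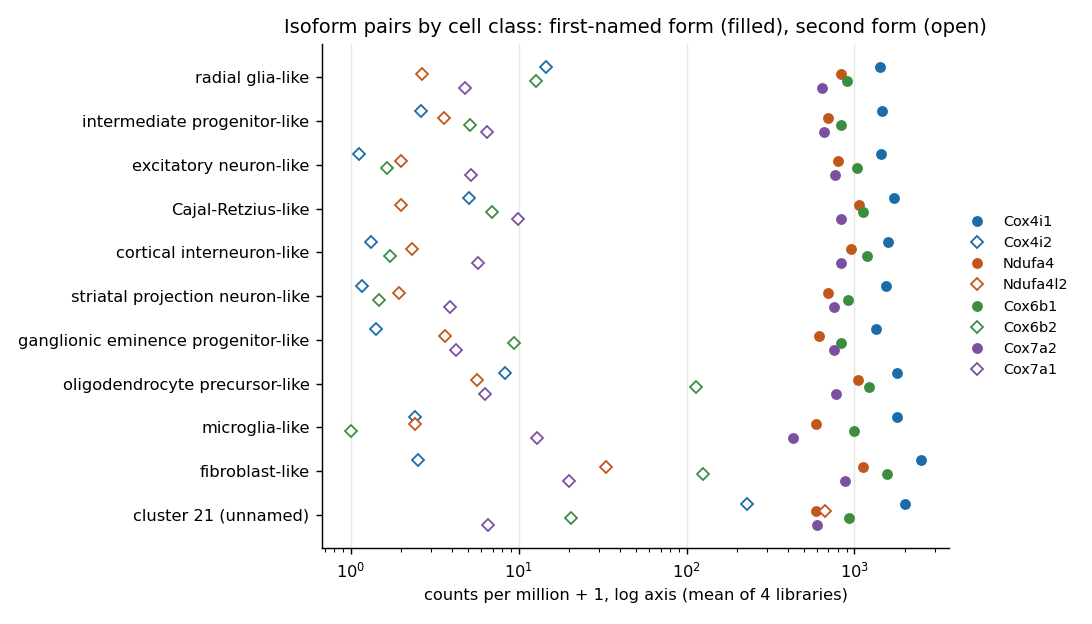
Mean level over 4 libraries (CPM + 1, log axis) of isoform pairs of complex IV subunits, by class; filled points are the usual forms Cox4i1, Ndufa4, Cox6b1 and Cox7a2, and open points the alternative forms Cox4i2, Ndufa4l2, Cox6b2 and Cox7a1. The filled points lie near 1000, and the open points lie far to the left except in the vessel cluster at the bottom, where Ndufa4l2 averaged 671 CPM beside 591 CPM for Ndufa4, and for Cox6b2 in fibroblast-like and oligodendrocyte precursor-like cells.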

How the data were processed

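The authors deposited, for each of 4 libraries (1 mouse each), raw counts per gene and cell barcode, made with the 10x Chromium 3′ v2 kit per the labels' protocols and aligned with GSNAP to GRCm38 per the submitters' processing notes. The use of molecular identifiers, strand and reads with several placements is not given in the sources used here. Deposited counts per library ran from 28049007 to 28988265. Rows named by a number alone held 1.69% of counts, and 33 duplicate rows (1.33%, affecting Ndufc2) were used once. Cells needed at least 500 genes and at most 10% mitochondrial counts. Scrublet's automatic limit marked 0.0684% of cells and was not used; cells scoring above 0.25 were removed as doublets (229). Clustering used scanpy 1.11.5 and leidenalg 0.10.2 (2000 variable genes, 30 components, 15 neighbours, resolution 1, 25 clusters). A cluster took a marker list's name when its score was at least 0.5 and led the next by 0.35, a margin set after seeing the data. It also needed 3 markers of that list, each detected in at least 10% of its cells. Its 10 top genes could not hold more markers of another type than of its own.

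Counts were summed per library and class (at least 20 cells in every library) and tested with edgeR 4.0.16 (quasi-likelihood, TMM, filterByExpr, threshold 0.05, adjusted over all genes tested). DESeq2 1.42.0, library-total scaling, no filter, 1000 genes per cell, clustering without members, other seeds and leaving out each library were alternatives. Copies were aligned with blastn 2.17.0. The NRF1-type motif was shortened by 1 letter after a first search, which raised its share in all promoters as well as in members'. The genes named in the text were the 13 mitochondrial genes, called members, the 2 highest per complex, the 8 with the widest class range, isoform pairs, and the largest rise and fall per class. Ndufb5, which came near the threshold in radial glia-like cells, and members with a near-identical copy were named outside this rule. Replicates were numbered in accession order. The members and lists were chosen with earlier results of these data known. The replicates of a group differed by more than sampling noise. The tests were tried on simulated data.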

Additional observations from a re-analysis of the deposited data

Results flagged for a closer look

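The genotype difference of Cox8a, a complex IV subunit gene, differed between 2 cell classes, radial glia-like cells on one side and excitatory neuron-like cells on the other. The difference between the 2 log2 changes was 0.36 (SE 0.0623), tested by the class-by-genotype term with library as a block (adjusted p = 0.0032, edgeR's quasi-likelihood test with Benjamini-Hochberg adjustment). Cox8a was higher in both COP1 KO libraries in radial glia-like cells (857, 846, 1061 and 1100 CPM), and its groups overlapped in excitatory neuron-like cells (691, 683, 708 and 681 CPM). Without COP1 KO replicate 2 the difference was 0.31 with an adjusted p of 0.14, and over its 9 alternatives the adjusted p ran from 2.1e-06 to 0.14.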

How the results depend on the processing

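No paired analysis was possible because the labels carry no replicate numbers. With each library left out in turn, the number of members called ran from 0 to 10 in the whole library, 1 to 19 in radial glia-like, 0 to 9 in excitatory neuron-like, 0 to 8 in intermediate progenitor-like, 0 to 5 in striatal projection neuron-like, 0 to 4 in ganglionic eminence progenitor-like and in oligodendrocyte precursor-like, 0 to 1 in Cajal-Retzius-like and 0 to 0 in cortical interneuron-like cells, and 0 to 1 for the class-by-genotype term. DESeq2 called 1 member in the whole library and 1 in excitatory neuron-like cells, 2 in radial glia-like cells, and 0 in intermediate and in ganglionic eminence progenitor-like cells. With no filter on low counts there were 17 in radial glia-like, 5 in intermediate progenitor-like and 2 in ganglionic eminence progenitor-like cells, 2 for the class-by-genotype term, and 1 each in cortical interneuron-like, excitatory neuron-like and oligodendrocyte precursor-like cells. Cells with at least 1000 genes gave 1 in radial glia-like and 0 in intermediate progenitor-like cells, and clustering without the members gave 2 and 0. Library totals, and clustering seed 1, gave 0 in ganglionic eminence progenitor-like cells; the seeds and the dividing radial glia-like cluster alone (1 member) were chosen after seeing the data. The log2 difference of the nuclear share in radial glia-like cells moved from 0.13 to 0.11 both with 1000 genes per cell and with clustering without the members, and that in intermediate progenitor-like cells from 0.04 to 0.056 with 1000 genes per cell. Direction reversed for COX3 in the whole library without COP1 KO replicate 2, ND4L in the whole library without HET replicate 1 and ND6 in radial glia-like cells without COP1 KO replicate 1; their log2 differences ran from −0.055 to 0.23, −0.52 to 0.13 and −0.024 to 1.24 over the libraries left out. The cause was not tested. Of 50 other values of the shares 47 moved by less than the spread between replicates, and so did all 32 with a library left out. Low counts limit COX2, ND3, ND4L and ATP8, and 2 libraries per group limit each test.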

Other observations

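Other genes of mitochondrial function followed the members to different degrees in radial glia-like cells. Cytochrome c, carriers and further subunits outside the symbol rule were higher in COP1 KO in 16 of 16 genes tested (median log2 difference 0.16), and 1 rose, Usmg5, a small ATP synthase subunit, at 239, 260, 357 and 334 CPM (0.52, adjusted p = 0.013 by edgeR). Assembly factors outside the rule were higher in 21 of 28 (0.07), citric acid cycle genes in 14 of 18 (0.08) and mitochondrial ribosomal protein genes in 47 of 77 (0.05), of which Mrps6 rose, at 103, 99.7, 249 and 224 CPM (1.27, adjusted p = 0.00037). Genes for expression and upkeep of the mitochondrial genome were higher in 12 and lower in 14 of 26 (−0.01), and in excitatory neuron-like cells they were higher in 6 and lower in 23 of 29 (−0.13), none of them called by edgeR. The median over all genes tested was 0.00 in both classes. The mitochondrial ribosomal RNA Rnr2 had 375, 377, 487 and 383 CPM in radial glia-like cells and was not called in any class.

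Counts of some members were divided with a near-identical row. Ndufs5 had 35.2, 23.2, 22.1 and 28.7 CPM in the whole library beside 114, 110, 115 and 104 CPM for its copy BC002163, so Ndufs5 held 16.1% to 23.6% of the pair. Gm6444, a pseudogene of Ndufb11 with 98.0% identity, had 27.8, 30.4, 19.8 and 21.8 CPM, lower in both COP1 KO libraries. In all, 6 nuclear members had a copy of at least 99% identity (Atp5f1, Cox7c, Atp5l, Ndufs5, Atp5g2 and Ndufs3).

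Within the vessel cluster, cells were split after their values were seen. All 40 cells with more Rgs5 (a pericyte gene) than Cldn5 (an endothelial gene) had a count of Ndufa4l2 and 30 had one of Cox4i2. Of the 62 cells with more Cldn5, 47 had Ndufa4l2 and 41 had Cox4i2. The 222 barcodes with under 500 genes were left out above, and hemoglobin made up 92.8% to 94.7% of their counts.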
